A study of Mus musculus with 4 samples.

Results

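The respiratory chain and ATP synthase of the mouse heart were examined through 94 genes of 18193 tested in all. They were chosen by name from the platform's annotation, as every probe set with a single gene symbol that starts with Nduf, Uqcr or Atp5, with Sdh followed by a, b, c or d, or with Cox followed by a digit from 4 to 8. A probe set is a group of short oligonucleotides that together report 1 transcript, and the brightest probe set on average stood for each gene. Hearts labelled GSK-3beta S9A knock-in (2 samples, age 3.5 months) were compared with hearts labelled wild-type (2 samples, age 3.6 months), all of strain C57B6 and all at baseline, with no treatment. In the knock-in the inhibitory serine of the kinase GSK-3beta is replaced by alanine. The labels do not say how the allele was made, whether each sample was 1 animal, or at what time of day hearts were taken. Values are log2 expression values from Affymetrix arrays, so a difference of 1 is a doubling.

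Complexes I to IV of the inner mitochondrial membrane pass electrons from NADH and succinate to oxygen, and complexes I, III and IV pump protons. Complex V, the ATP synthase, uses the proton gradient to make ATP. Heart muscle relies on this chain for nearly all of its ATP, and many of its subunits exist as isoforms, some of them restricted to striated muscle. Assembly factors are separate proteins that insert cofactors or hold intermediates while a complex is built, and are not part of the finished enzyme.

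By role, the 94 genes comprised 34 structural subunits of complex I, 4 of complex II, 8 of complex III, 17 of complex IV and 17 of complex V. A further 12 were assembly factors (8 named Ndufaf for complex I and 4 named Sdhaf for complex II), and 2 were relatives that belong to neither class. Ndufa4 was counted with complex IV, of which it is now known to be a subunit. The 94 genes lay on 19 chromosomes, with the most, 10, on chromosome 7. In the RefSeq order of protein-coding genes Ndufb4, a complex I subunit, is 5 genes away from Gsk3b itself. Its only probe set with a single symbol read 4.63 and 4.42 in knock-in hearts, against 4.57 and 4.48 in wild-type hearts, so the groups overlapped at a dim level. Its mean was 4.52, where the median level over all genes was 7.11. Values that low do not show whether the Ndufb4 transcript is present or changed. Ndufb4 is also among the genes named on probe sets with several symbols, which were left out.

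Tissue identity was checked with marker lists. All 12 cardiomyocyte markers were measured, with median values of 14.3 and 14.3 on the knock-in arrays and 14.2 and 14.2 on the wild-type arrays. All 12 had a higher mean in knock-in hearts, 7 of them with groups apart, and the median difference was 0.05. Of 14 measured liver markers, 14 had both knock-in arrays above both wild-type arrays, against 19.6% of all genes. The liver markers had a median difference of 1.49, and none passed the test over all genes. Their summed linear signal was 2661 and 4356 on knock-in arrays 1 and 2, against 1290 and 891 on wild-type arrays 1 and 2. The albumin gene Alb read 8.58 and 9.66 in knock-in hearts, against 7.01 and 5.54 in wild-type hearts. The median differences of the markers of skeletal muscle, brown adipocytes, fibroblasts, endothelium, macrophages and erythrocytes lay between -0.12 and 0.05. Among them the skeletal actin gene Acta1 differed by 1.02 and the adipocyte gene Adipoq by 1.13, with groups apart and neither past the test. In a whole-heart sample, fewer cells of a type and less RNA per cell cannot be told apart.

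The promoters of 5 Cox isoform genes and of 3 assembly factor genes are shown because the results below turn on these genes. Each runs from 250 bases before the annotated start to 30 bases after it, 5′ to 3′ on the gene's strand, from RefSeq on build GRCm38.p6. Capitals mark the letters searched for, on both strands: GCGCATGC for NRF1, CCGGAAGT for GABP and other ETS factors, TCAAGGTC for ERR, AAGATGGC for YY1, GGGCGG for SP1, and the MEF2 motif. The windows are, for Cox6a1, chr5:115348929-115349208 (minus strand), for Cox7a1, chr7:30183921-30184200 (plus strand), for Cox7a2, chr9:79759824-79760103 (minus strand), for Cox8b, chr7:140900417-140900696 (minus strand), and for Cox8a, chr19:7217587-7217866 (minus strand). Those of the assembly factors are, for Sdhaf1, chr7:30322346-30322625 (minus strand), for Sdhaf3, chr6:6955768-6956047 (plus strand), and for Sdhaf4, chr1:24005611-24005890 (minus strand).
Cox7a1: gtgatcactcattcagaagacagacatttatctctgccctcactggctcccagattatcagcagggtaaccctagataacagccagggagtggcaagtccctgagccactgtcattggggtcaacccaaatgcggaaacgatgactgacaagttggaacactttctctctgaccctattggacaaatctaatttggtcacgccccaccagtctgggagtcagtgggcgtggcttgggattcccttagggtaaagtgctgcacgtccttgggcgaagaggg
Cox8b: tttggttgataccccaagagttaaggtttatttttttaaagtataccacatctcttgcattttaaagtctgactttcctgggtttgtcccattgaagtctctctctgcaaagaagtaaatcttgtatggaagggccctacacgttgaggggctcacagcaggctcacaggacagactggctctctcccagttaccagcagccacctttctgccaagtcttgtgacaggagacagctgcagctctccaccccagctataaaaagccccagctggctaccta
Cox6a1: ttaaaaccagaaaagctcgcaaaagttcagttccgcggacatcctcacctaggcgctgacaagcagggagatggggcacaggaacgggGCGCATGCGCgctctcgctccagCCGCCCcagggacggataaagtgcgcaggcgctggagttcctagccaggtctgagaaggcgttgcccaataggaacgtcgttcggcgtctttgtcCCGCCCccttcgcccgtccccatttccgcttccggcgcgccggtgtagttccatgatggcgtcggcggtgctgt
Cox7a2: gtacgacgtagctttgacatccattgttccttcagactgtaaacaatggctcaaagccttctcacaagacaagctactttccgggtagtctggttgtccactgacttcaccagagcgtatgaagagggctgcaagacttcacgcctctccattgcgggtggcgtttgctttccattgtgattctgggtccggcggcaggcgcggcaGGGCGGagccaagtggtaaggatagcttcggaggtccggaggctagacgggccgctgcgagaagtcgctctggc
Cox8a: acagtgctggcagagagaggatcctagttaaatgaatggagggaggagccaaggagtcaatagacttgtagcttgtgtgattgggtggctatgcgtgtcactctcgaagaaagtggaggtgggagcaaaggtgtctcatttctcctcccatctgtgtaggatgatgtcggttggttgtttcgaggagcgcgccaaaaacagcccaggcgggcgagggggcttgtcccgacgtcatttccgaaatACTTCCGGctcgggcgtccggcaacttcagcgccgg
Sdhaf1: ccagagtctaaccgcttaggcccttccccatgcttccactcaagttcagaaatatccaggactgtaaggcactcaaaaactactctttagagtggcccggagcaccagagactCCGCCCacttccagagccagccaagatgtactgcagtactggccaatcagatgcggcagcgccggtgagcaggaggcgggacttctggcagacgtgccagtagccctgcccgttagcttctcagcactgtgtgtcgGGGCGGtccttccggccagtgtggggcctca
Sdhaf3: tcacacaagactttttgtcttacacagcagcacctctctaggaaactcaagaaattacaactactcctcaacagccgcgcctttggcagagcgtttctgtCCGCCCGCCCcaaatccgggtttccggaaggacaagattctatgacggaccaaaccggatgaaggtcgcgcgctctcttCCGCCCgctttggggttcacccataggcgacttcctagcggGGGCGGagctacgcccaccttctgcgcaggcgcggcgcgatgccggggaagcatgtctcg
Sdhaf4: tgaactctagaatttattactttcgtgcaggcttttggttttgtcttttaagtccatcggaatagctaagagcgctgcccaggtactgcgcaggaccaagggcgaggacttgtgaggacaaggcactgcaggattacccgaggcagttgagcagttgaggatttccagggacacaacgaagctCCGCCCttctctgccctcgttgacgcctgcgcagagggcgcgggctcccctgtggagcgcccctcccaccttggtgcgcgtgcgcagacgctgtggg

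The promoters of the muscle isoforms Cox7a1 and Cox8b held none of the 6 motifs. The third muscle isoform, Cox6a2, and the assembly factor Ndufaf6 had no promoter in the RefSeq table. Among the liver isoforms, that of Cox6a1 held the NRF1 letters on both strands at 1 place, where the 2 matches overlap, and 2 SP1 matches, that of Cox7a2 held 1 SP1 match and that of Cox8a 1 ETS match. The 3 assembly factor promoters held 2, 4 and 1 SP1 matches and none of the other motifs. Across the 78 of the 94 genes with a promoter in the RefSeq table, 12.8% held the NRF1 letters, against 4.09% of the 14452 tested genes with a promoter. The shares were 6.41% against 5.91% for the ETS letters, 5.13% against 2.91% for YY1 and 2.56% against 0.906% for ERR. SP1 letters stood in 10 of 11 assembly factor promoters (90.9%), in 40.9% of 66 structural subunit promoters and in 52.7% of all. These shares describe letters in a window, with no test, and a match is not a bound site.

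None of the 94 genes passed the test between knock-in and wild-type hearts over all genes (limma, two-sided, Benjamini-Hochberg adjusted p under 0.05), a test that 1 gene in all passed, or 0.00550%. Within the 94 genes, the structural subunits as a class differed least. Their median difference was 0.02 over 80 genes (-0.00 after quantile normalization, 0.03 with averaged probe sets), against 0.00 over all genes. Of the 80, 68 (85%) lay within 0.1 of 0, against 53.5% of all genes. Among the 408 genes outside the 94 with a mean over 12, the share was 63.7%. The 95% limma intervals, which are not adjusted for the number of genes, lay within 0.5 of 0 for 79 of the 80. They did so for 14499 of all 18193 genes and for 366 of the 408 bright ones. The exception among the subunits was Cox6b2, the testis isoform of a complex IV subunit. On the brightest probe sets, assembly factors stood apart from the subunits in size, with a median difference of 0.24 over 12 genes. Of the 12, 11 were positive. With averaged probe sets the medians were 0.22 for the factors and 0.03 for the subunits. Some dimmer probe sets of subunits differed by as much as the factors, such as those of Ndufc1 (0.26) and Ndufb5 (0.21). Others were negative, such as a probe set of Ndufa7 (-0.08). Over all 185 probe sets of the 94 genes the median was 0.03. The part of signal level in this contrast was not tested.

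**Figure D1:**
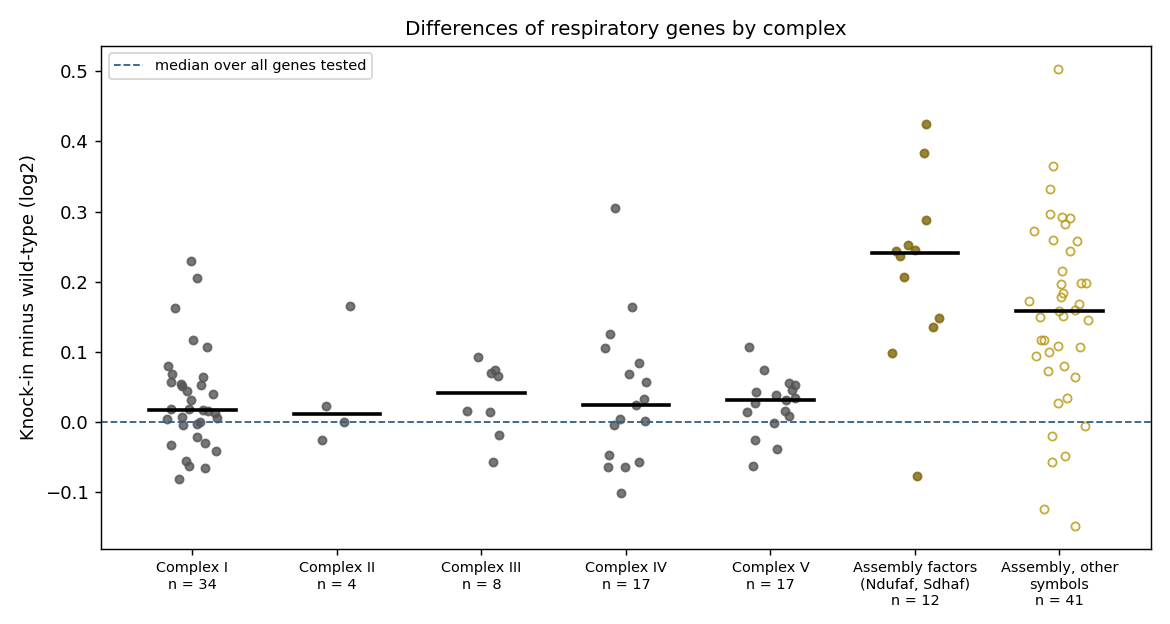
Knock-in minus wild-type difference (log2) of each structural subunit by complex, of the 12 Ndufaf and Sdhaf assembly factors, and of 41 assembly factors with other symbols (open circles, Timmdc1 left out because its difference of 1.54 is off the scale). Black bars are medians, which lie between 0.01 and 0.04 for complexes I to V (just below 0 for I, II and IV after quantile normalization), at 0.24 for the 12 factors and at 0.16 for the 41, and the dashed line is the median over all genes.

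Among the genes below whose differences lay within 0.05 of 0, quantile normalization turned the positive differences of Ndufs7, Sdhc, Uqcrc1, Uqcr11, Atp5d, Atp5g3, Cox5b, Cox6b1, Cox6c and Cox7a2l negative.

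At an unadjusted limma p under 0.05, 4 of the 94 genes had a higher mean in knock-in hearts (4.26%, against 4.40% of all genes) and none had a lower one (2.99% of all genes). All 4 were assembly factors. Structural subunits numbered 0 at that p, but 4 with an intensity trend and robust prior, 3 with centred arrays and 3 with averaged probe sets, where assembly factors numbered 7, 8 and 6. Both knock-in arrays lay above both wild-type arrays in 24 of the 80 subunits, or 30%, where 19.6% of all genes did. They lay below in 6, or 7.5%, where 17.0% of all genes did. Most subunits were bright, 73 of 80 having a mean over 12, a level reached by 2.65% of all genes. Among the 408 other genes that bright, 38% had both knock-in arrays above both wild-type arrays, 15.7% had both below, and the median difference was 0.03. The highest value of any probe set with 1 symbol was 14.99, and compression near the top of the array's range was not tested.

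**Figure D2:**
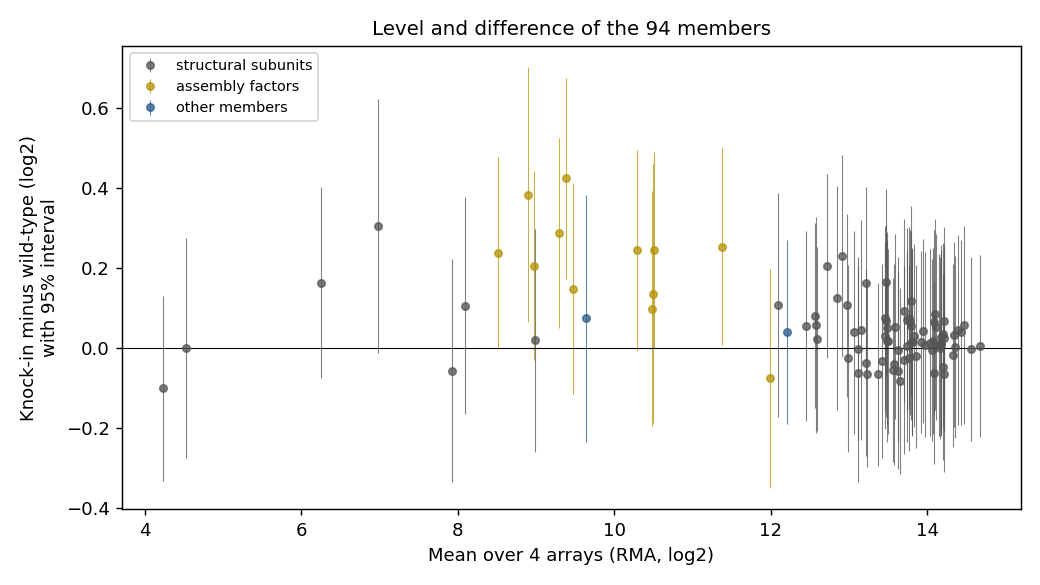
Mean over the 4 arrays (RMA value, log2) against knock-in minus wild-type difference (log2) for the 94 genes, with 95% limma intervals. Structural subunits crowd between 12 and 15 near a difference of 0, and the 12 assembly factors lie between 8.5 and 12 with 11 of them above 0.

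Complex I takes electrons from NADH through a flavin and a row of iron-sulphur clusters. Its 34 subunits had a median difference of 0.02, which was -0.00 after quantile normalization, with 23 positive, 10 negative and that of Ndufb4 equal to 0. Ndufs1, which carries iron-sulphur clusters, read 13.13 and 13.11 in knock-in hearts, against 13.14 and 13.10 in wild-type hearts. Ndufv1, the subunit that binds NADH and flavin, read 13.35 and 13.47 in knock-in hearts, against 13.46 and 13.43 in wild-type hearts. In both genes the groups overlapped.

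Of the other cluster-carrying core subunits, Ndufv2 differed by 0.05 with knock-in arrays above wild-type arrays. On the brightest probe sets Ndufs8 differed by -0.06 with knock-in arrays below, and Ndufs7 by 0.02 with overlap. Dimmer probe sets of Ndufs8 went both ways, with differences of 0.07 and 0.06 at means of 13.15 and 12.20. Those at means of 13.55, 12.38 and 7.85 differed by -0.03, -0.02 and -0.02. A second probe set of Ndufs7, at a mean of 13.14, differed by 0.11 with groups apart. Ndufs3, a core subunit without a cluster, differed by 0.03 with overlap. The accessory subunit Ndufa5 had the highest difference of the complex over all 4 arrays. It read 13.00 and 13.06 in knock-in hearts, against 12.72 and 12.87 in wild-type hearts, a difference of 0.23 ± 0.10 (SE, adjusted p = 0.698 by limma). The groups did not overlap. A second probe set of Ndufa5, at a mean of 12.75, differed by only 0.05. The lowest difference was that of Ndufa10, another accessory subunit, at 13.64 and 13.57 in knock-in hearts, against 13.67 and 13.71 in wild-type hearts (-0.08). A dimmer probe set of Ndufa10, at a mean of 11.16, had the other sign, with a difference of 0.07. Ndufab1, the mitochondrial acyl carrier protein, differed by 0.12.

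Complex II, succinate dehydrogenase, links the citric acid cycle to the chain and is encoded wholly in the nucleus. Sdha, its flavin subunit, read 13.78 and 13.72 in knock-in hearts, against 13.77 and 13.78 in wild-type hearts. Sdhb, its iron-sulphur subunit, read 14.16 and 14.16 in knock-in hearts, against 14.17 and 14.16 in wild-type hearts. Neither gene's groups were apart, and the membrane anchor Sdhc differed by 0.02. Sdhd, the other anchor, read 13.57 and 13.54 in knock-in hearts, against 13.43 and 13.35 in wild-type hearts. Its groups did not overlap, and the difference of 0.16 ± 0.10 (SE) did not pass (adjusted p = 0.773 by limma).

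Complex III, the cytochrome bc1 complex, had differences between -0.06 and 0.09 over 8 subunits, with a median of 0.04. Uqcrc1, a core protein, read 14.02 and 14.05 in knock-in hearts, against 14.06 and 13.98 in wild-type hearts. Uqcrfs1, the Rieske iron-sulphur protein, read 14.10 and 14.13 in knock-in hearts, against 14.03 and 14.08 in wild-type hearts. Knock-in arrays lay above wild-type arrays for Uqcrfs1 and overlapped them for Uqcrc1. Uqcrc2, the second core protein, and Uqcrq each differed by 0.07 with groups apart. Uqcrh, the hinge protein that helps bind cytochrome c1, differed by 0.09 with groups apart. A second probe set of Uqcrh, at a mean of 13.23, differed by -0.02 with overlap, and one of Uqcrc2 by 0.20 with groups apart. Uqcrb differed by -0.02, Uqcr11 by 0.02 and Uqcr10 by -0.06. The other probe set of Uqcrb, at a mean of 12.34, had the other sign, with a difference of 0.16 and groups apart.

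Complex V had differences between -0.06 and 0.11 over 17 subunits, with a median of 0.03. Atp5b, the catalytic beta subunit, read 14.39 and 14.43 in knock-in hearts, against 14.32 and 14.41 in wild-type hearts. Atp5a1, the alpha subunit, read 14.57 and 14.54 in knock-in hearts, against 14.58 and 14.53 in wild-type hearts. Both pairs of groups overlapped. The central stalk subunits Atp5c1, Atp5d and Atp5e differed by 0.03, 0.01 and -0.06, and Atp5o of the peripheral stalk by 0.04. The membrane ring subunit c is encoded by Atp5g1, Atp5g2 and Atp5g3, whose mature proteins are identical, and these differed by 0.03, -0.04 and 0.04. The highest difference was that of Atp5md, a small membrane subunit also called DAPIT, at 0.11, and the lowest that of Atp5e.

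Complex IV, cytochrome c oxidase, carries the isoforms that separate heart from liver. Its catalytic core is encoded by mitochondrial DNA and the 17 subunits here, which surround that core, had a median difference of 0.02 (-0.01 after quantile normalization). Cox4i1, the main isoform of subunit 4, read 14.52 and 14.46 in knock-in hearts, against 14.37 and 14.50 in wild-type hearts. Cox4i2, its lung-enriched and oxygen-responsive isoform, read 8.06 and 8.23 in knock-in hearts, against 8.11 and 7.97 in wild-type hearts. The groups overlapped for both isoforms. On their brightest probe sets, the subunits Cox5a, Cox5b, Cox6b1 and Cox6c, with 1 somatic form, differed by 0.03, 0.00, 0.02 and 0.00 with overlap. Ndufa4 differed by 0.08 with groups apart. The other probe sets of Cox5a, at means of 13.53 and 12.47, differed by 0.08 and 0.11 with groups apart. Those of Cox5b differed by between -0.18 and 0.03. A second probe set of Cox6c, at a mean of 12.04, differed by 0.26 with groups apart, while that of Cox6b1 differed by 0.01. Cox7c read 6.28 and 6.38 in knock-in hearts, against 6.19 and 6.15 in wild-type hearts, on a dim probe set whose dimmer partner differed by -0.11. The Cox7c difference was 0.16 with groups apart, at a mean of 6.25 that lay below the median level of 7.11 over all genes. Values at such levels do not show that a transcript is present.

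Subunits 6a, 7a and 8 each have a form made in heart and skeletal muscle and a form named for liver that most tissues make. The muscle form Cox6a2 read 14.14 and 14.21 in knock-in hearts, against 14.30 and 14.18 in wild-type hearts, and overlapped. The liver form Cox6a1 read 13.22 and 13.17 in knock-in hearts, against 13.24 and 13.28 in wild-type hearts, with knock-in arrays below wild-type arrays. The differences were -0.06 for the muscle form and -0.06 for the liver form, so that the muscle-minus-liver difference averaged 0.98 in both groups. Leaving out 1 array moved its shift to between -0.08 and 0.08. Dimmer probe sets of Cox6a2 and Cox6a1 each differed by -0.01 with overlap.

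For subunit 7a the muscle form Cox7a1 read 13.60 and 13.64 in knock-in hearts, against 13.60 and 13.65 in wild-type hearts. The liver form Cox7a2 read 14.21 and 14.28 in knock-in hearts, against 14.19 and 14.16 in wild-type hearts, with groups apart. The muscle-minus-liver difference averaged -0.62 in knock-in hearts and -0.55 in wild-type hearts, a shift of -0.07 with an SD between arrays of a group of 0.04. It was -0.03 without wild-type array 2 and -0.11 without wild-type array 1.

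For subunit 8 the muscle form Cox8b read 14.15 and 14.20 in knock-in hearts, against 14.26 and 14.19 in wild-type hearts. The liver form Cox8a read 12.86 and 12.95 in knock-in hearts, against 12.90 and 12.67 in wild-type hearts. Groups overlapped in both genes. The muscle-minus-liver difference was 1.29 and 1.24 in knock-in hearts, against 1.36 and 1.52 in wild-type hearts, a shift of -0.17 with an SD of 0.08 that became -0.08 when the probe sets of a gene were averaged. It was -0.09 without wild-type array 2 and -0.25 without wild-type array 1. None of the 6 isoform genes passed by limma, their adjusted p running from 0.879 to 1. No test was made of the pairs, and a difference between 2 probe sets has meaning only in how it varies between arrays. The liver markers above were higher on the knock-in arrays, and their part in these shifts was not tested.

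**Figure D3:**
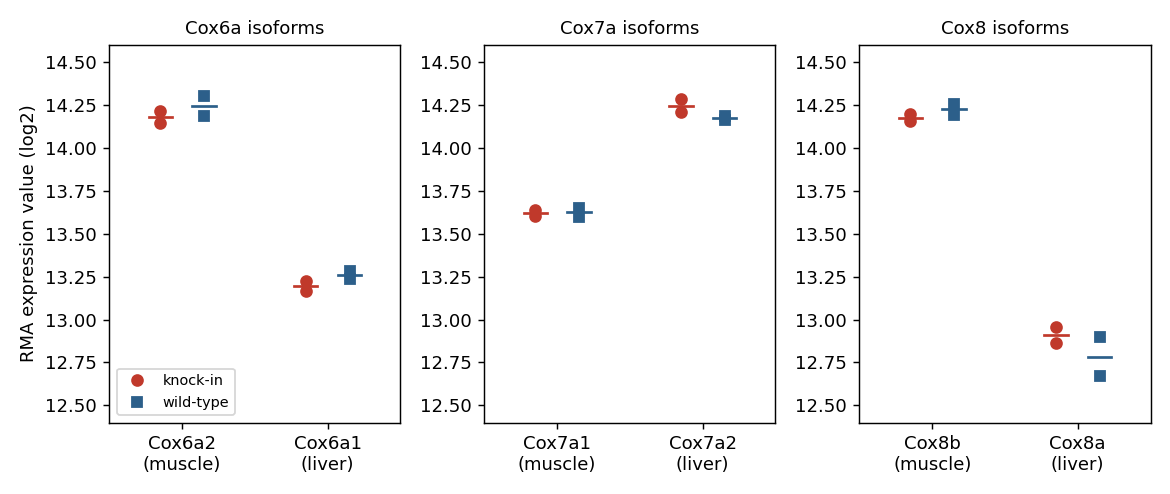
RMA values (log2) of the muscle and liver isoforms of Cox6a, Cox7a and Cox8 on each array, knock-in arrays as red circles and wild-type arrays as blue squares, with short bars for group means. Within each gene the groups lie within 0.13 of each other on average, and the heights of different genes are not comparable because they come from different probe sets.

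The testis isoforms were dim. Cox6b2 read 7.16 and 7.11 in knock-in hearts, against 6.99 and 6.67 in wild-type hearts. Its difference of 0.31 ± 0.13 (SE) had groups apart and an adjusted p of 0.687 by limma. It was the highest among the structural subunits over all 4 arrays, and without wild-type array 2 it was 0.14, against 0.31 for Ndufa5. Cox7b2 differed by -0.10 at a mean near 4.2 and Cox8c by -0.06, and an array value at such levels does not show that a transcript is present. Of the 2 relatives in neither class, Cox7a2l differed by 0.04, and Ndufa4l2, a hypoxia-induced relative of Ndufa4, by 0.07.

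The assembly factors of complexes I and II had a median difference of 0.24, above the median of each of the 5 complexes. Both knock-in arrays lay above both wild-type arrays in 9 of the 12 (75%) and below in none. Over all genes the shares were 19.6% and 17.0%, and over the 5144 other genes whose mean lay in the range of the 12 factors, from 8.51 to 11.99, they were 29.9% and 17.5%. Of the 12, 4 had an unadjusted limma p under 0.05, all with a higher mean in knock-in hearts, against 6.51% of the genes at that level. The median difference at that level was 0.03. None of the 12 passed over all genes, their smallest adjusted p being 0.395.

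Sdhaf1, which helps place the iron-sulphur clusters of SDHB, read 9.56 and 9.62 in knock-in hearts, against 9.09 and 9.24 in wild-type hearts. Its difference of 0.42 ± 0.10 (SE), or 1.34-fold, was the highest of the 94 genes over all 4 arrays and had an adjusted p of 0.395 by limma. Sdhaf3, which acts in the same step, read 9.13 and 9.05 in knock-in hearts, against 8.55 and 8.86 in wild-type hearts (0.38, adjusted p = 0.572 by limma). In both genes the groups were apart, although a second, dim probe set of Sdhaf3 differed by -0.05. Sdhaf4, which binds flavin-bearing SDHA, read 11.43 and 11.56 in knock-in hearts, against 11.27 and 11.22 in wild-type hearts. Its difference was 0.25, with groups apart. Sdhaf2, needed to attach flavin to SDHA, differed by 0.10 and its groups overlapped. A dimmer probe set of Sdhaf2 differed by 0.21 with groups apart.

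Ndufaf6, required early in complex I assembly, read 9.38 and 9.49 in knock-in hearts, against 9.15 and 9.14 in wild-type hearts, a difference of 0.29 with groups apart (adjusted p = 0.569 by limma). Ndufaf1, Ndufaf2, Ndufaf3, Ndufaf5 and Ndufaf7 differed by 0.24, 0.21, 0.25, 0.15 and 0.24, each with groups apart. Ndufaf4 differed by 0.14 and Ndufaf8 by -0.08, and their groups overlapped. The second probe set of Ndufaf8 differed by -0.01.

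**Figure D4:**
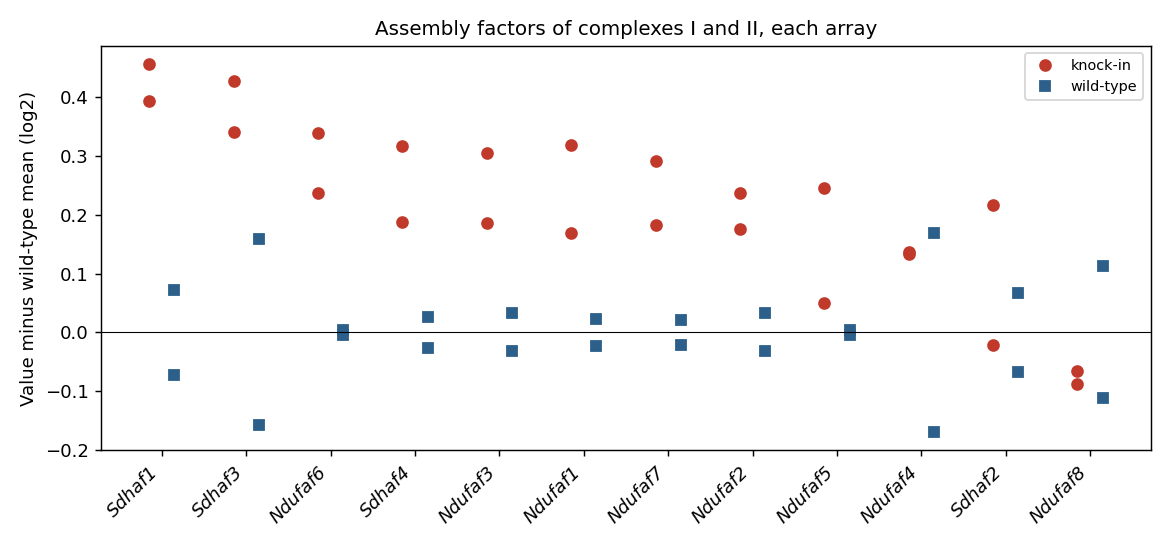
Values of the 12 assembly factors on each array minus the wild-type mean of the gene (log2), knock-in arrays as red circles and wild-type arrays as blue squares, ordered by difference. The 9 genes on the left have both knock-in arrays above both wild-type arrays, and Ndufaf4, Sdhaf2 and Ndufaf8 on the right overlap.

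Arrays of a group were not alike in this respect. The 12 factors deviated from their own 4-array means by a median of 0.06 on knock-in array 1 and 0.17 on knock-in array 2, against -0.10 on wild-type array 1 and -0.14 on wild-type array 2. For the 5 complexes the medians lay between -0.04 and 0.04 on every array. Without knock-in array 2, the array with the higher liver signal, the median difference of the factors was 0.18 and 10 of 12 were positive. Without knock-in array 1 it was 0.30, with 11 positive. The part of the liver transcripts in these differences was not tested.

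**Figure D5:**
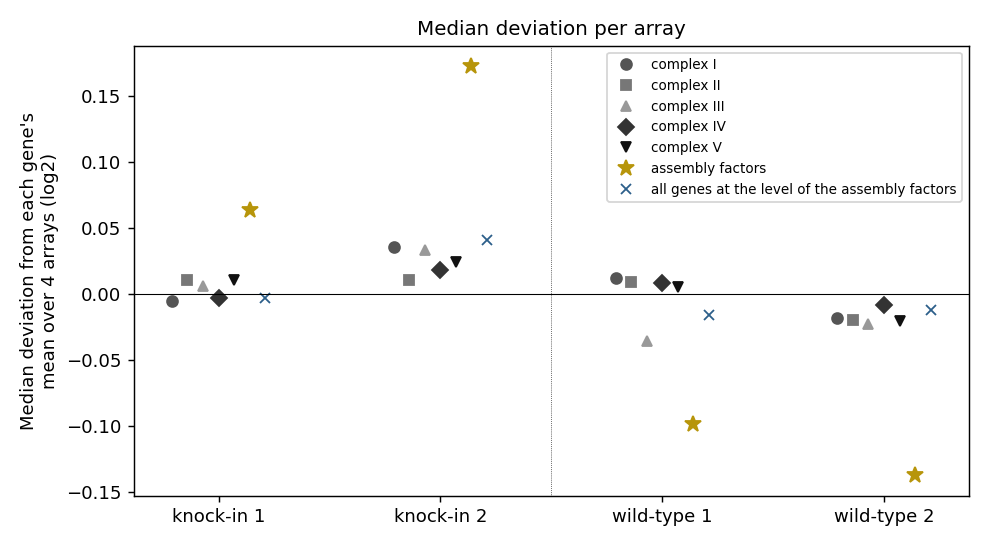
Median deviation (log2) of the genes of each complex, of the 12 assembly factors and of all other genes at their level, from each gene's mean over the 4 arrays, for knock-in arrays 1 and 2 and wild-type arrays 1 and 2. The assembly factors (stars) lie at 0.06 and 0.17 on the knock-in arrays and at -0.10 and -0.14 on the wild-type arrays, while the complexes lie within 0.04 of 0.

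Assembly factors with other symbols, listed for complexes I to V, had 36 positive and 6 negative differences among 42 measured genes, with a median of 0.16. The share of positive differences was 85.7%, against 50.1% of all genes and 59.4% of genes at the level of the 12 factors above. Both knock-in arrays lay above both wild-type arrays in 27 of them (64.3%, against 19.6% of all genes) and below in 1 (2.38%, against 17.0%), and none passed over all genes. Of 10 for complex I, all 10 were positive. Timmdc1, a complex I assembly factor encoded 8 protein-coding genes from Gsk3b, read 9.58 and 9.50 in knock-in hearts, against 7.81 and 8.19 in wild-type hearts, or 2.90-fold (adjusted p = 0.0724 by limma, and between 0.00775 and 0.679 over the alternatives). Without it the median over 41 genes was 0.16, with 35 positive.

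The next by p in that list were Aifm1, a flavoprotein of the intermembrane space, with a difference of 0.28, and the assembly factor Foxred1 with 0.24. For complexes II, III and V, 7 of 10 were positive, and the 3 of smallest p were Uqcc1 of complex III with a difference of 0.29, Tmem242 with one of 0.26 and Bcs1l, which inserts the Rieske protein, with one of 0.26. For complex IV, 19 of 22 were positive. Cmc1, which stabilises the newly made catalytic subunit, read 9.43 and 9.42 in knock-in hearts, against 8.96 and 9.16 in wild-type hearts. Cox10, an enzyme of heme a synthesis, read 10.96 and 10.92 in knock-in hearts, against 10.68 and 10.54 in wild-type hearts. Groups were apart for both genes, and Coa6, which acts in copper delivery, differed by 0.30. The adjusted p of these 8 genes ran from 0.515 to 0.701 by limma.

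Other genes of mitochondrial respiration were set beside them. Among 8 carriers and structural genes outside the symbols above, the median difference was 0.08. Of the 8, 6 (75%) were positive, against 50.1% of all genes. The median was 0.04 without wild-type array 1 and 0.15 without wild-type array 2. Atpif1, the inhibitor that stops the ATP synthase from running backwards, read 11.59 and 11.58 in knock-in hearts, against 10.93 and 11.05 in wild-type hearts. This was a 1.51-fold difference with groups apart, which did not pass (adjusted p = 0.237 by limma). Cyc1, the cytochrome c1 of complex III, differed by 0.12, Cycs, which encodes cytochrome c, by 0.08, and Dhodh, which feeds electrons from pyrimidine synthesis to ubiquinone, by 0.16. ND5, a complex I subunit encoded by mitochondrial DNA, read 14.02 and 14.12 in knock-in hearts, against 13.91 and 14.06 in wild-type hearts, and the groups overlapped.

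Citric acid cycle genes had a median difference of 0.06 over 15 genes, and none reached an unadjusted limma p under 0.05. Of the 15, 10 (66.7%) were positive, against 50.1% of all genes and 62.5% of the 408 genes with a mean over 12. Both knock-in arrays lay above both wild-type arrays in 8 (53.3%) and below in 1 (6.67%). Those shares were 19.6% and 17.0% over all genes, and 38% and 15.7% over the 408. The citric acid cycle genes of smallest p had differences of 0.36 (Dld), 0.18 (Sucla2) and 0.14 (Idh3a). The median was 0.01 after quantile normalization and 0.00 with the probe set listed first. Genes of the outer membrane, import and cristae had a median of 0.14 over 17 genes, with 15 positive (88.2%, against 50.1% of all genes). Both knock-in arrays lay above both wild-type arrays in 10 (58.8%, against 19.6% of all genes). They lay below in 1 (5.88%, against 17.0%). The share above was 64.3% among the 42 assembly factors with other symbols. The median was 0.08 without knock-in array 2, the array with the higher liver signal, and 0.17 without knock-in array 1. Without wild-type array 1 it was 0.15, and without wild-type array 2 it was 0.13. The part of the liver transcripts in these medians was not tested. The 3 of smallest p were the import receptor Tomm22 with a difference of 0.35, the cristae protein Immt with one of 0.22 and the fusion GTPase Opa1 with one of 0.19.

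The regulators gave values in both directions. Yy1, a transcription factor with sites in respiratory gene promoters, read 9.38 and 9.33 in knock-in hearts, against 9.68 and 9.66 in wild-type hearts, a difference of -0.31. The coactivator Ppargc1b read 10.95 and 11.01 in knock-in hearts, against 11.18 and 11.36 in wild-type hearts, a difference of -0.29. The mitochondrial deacetylase Sirt3 read 10.75 and 10.63 in knock-in hearts, against 10.40 and 10.37 in wild-type hearts, a difference of 0.31. Groups were apart in all 3 genes and none passed (adjusted p from 0.518 to 0.605 by limma). Ppargc1a, the coactivator best known for driving mitochondrial genes, differed by -0.11 with groups that overlapped. Over the 18 regulators 13 were positive (72.2%, against 50.1% of all genes), with a median of 0.08 that was -0.02 without wild-type array 1.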

How the data were processed

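The samples were 4 Affymetrix arrays of heart RNA, 2 per group by their titles. The deposited log2 values were made by the authors with RMA in Affymetrix Expression Console, per the submitters' processing notes, and per the labels the wild-type arrays were normalized only with these knock-in arrays. Tool versions and a genome build are not given in the sources used here. No detection call comes with RMA values, and precision is limited by the number of arrays.

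The table held 45101 probe sets, of which 34945 had 1 symbol. Symbols were updated through Entrez identifiers with RefSeq (GRCm38.p6), which changed no membership, and 185 probe sets reported the 94 genes. Another 10 probe sets that name such a gene beside other symbols were left out. The probe set of highest mean represented each gene. Knock-in minus wild-type differences were fitted for 18193 genes with lmFit and eBayes of limma 3.58.1 (R 4.3.3), without trend or robust prior, two-sided, and checked on simulated data. With 2 arrays in each group, the smallest p an exact permutation test allows is 0.333. Since the labels name no separate animals, the spread behind each p-value is that between these samples and may be technical. Named genes were all Cox, Sdh and Uqcr genes, fixed core subunits, the extremes of each complex, those with an unadjusted p under 0.05, and the 3 of smallest p in each other list. The Ndufaf genes with a larger p, Ndufb4, Alb, Acta1, Adipoq, ND5, Ppargc1a and Cycs were named after their values were seen. The genes and lists were chosen with earlier results of these data known. The range of levels set beside the assembly factors, the genes with a level over 12 and the lists without Timmdc1 were added after seeing the data. Other settings tried were a block for the replicate number, a trend with robust prior, centring, quantile normalization, brighter genes alone, 2 other probe set choices, and each array left out.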

Additional observations from a re-analysis of the deposited data

How the results depend on the processing

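No member passed over all genes under any of the 11 alternatives or among structural subunits alone, and the rule gave the same genes with current symbols. Over all genes 1 passed, against 0 with the replicate number as a block or the probe set listed first, 22 with trend and robust prior, 11 with centred arrays, quantile normalization or averaged probe sets, 7 among brighter genes, and 0 without any 1 array. Members at an unadjusted p under 0.05 numbered 4, but 3 with the replicate block, 11 with trend and robust prior or centring, 8 among brighter genes, 9 with averaged probe sets, and 1 to 4 without 1 array. The replicate numbers were not shown to pair samples: over all genes, replicate 1 minus 2 in knock-in and wild-type hearts correlated at -0.0309. The assembly factor median was 0.18 to 0.30 over the alternatives, with 10 or 11 of 12 positive.

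With centred arrays the medians became 0.0723 (all members), 0.0594 (structural subunits), 0.0563, 0.050, 0.0792, 0.0631 and 0.0695 (complexes I to V), where that of all genes became 0.0389. With quantile normalization they were 0.00942 (all members), -0.00432 (structural subunits), -0.00094 (I), -0.00880 (II), 0.0144 (III), -0.00936 (IV) and 0.00793 (V). With the probe set listed first they were 0.0149 (III) and 0.00172 (IV). Without 1 array they ran from 0.00763 to 0.0389 (structural subunits), -0.0068 to 0.0389 (I), -0.00323 to 0.0258 (II), 0.0256 to 0.0581 (III) and 0.0107 to 0.0285 (IV). The Cox8 shift was -0.0762 with averaged probe sets. The citric acid cycle median was 0.0967 with centring, 0.00868 with quantile normalization, 0.0191 with averaged probe sets, 0.00271 with the probe set listed first and 0.0290 without knock-in array 1. In the lists outside the rule, 1 gene, Timmdc1, passed with trend and robust prior, centring, quantile normalization, brighter genes alone or averaged probe sets. Of 55 named members, 10 had the other sign after quantile normalization, 8 after centring and up to 10 without 1 array, none of them called. In every such case the cause was not tested.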

Other observations

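Different probe sets of a gene did not always give the same sign. Of the 53 genes with several probe sets, 24 had differences of both signs, and the median spread within a gene was 0.115. The spread was over 0.3 in 5 genes, Atp5g1, Ndufab1, Sdhaf3, Atp5a1 and Atp5j2, which were singled out after their values were seen. A dim probe set of Atp5g1 read 4.61 and 4.57 in knock-in hearts, against 5.17 and 4.99 in wild-type hearts, while its bright one differed by 0.03. The dimmest probe set of Atp5j2 read 7.73 and 7.59 in knock-in hearts, against 8.0 and 7.93 in wild-type hearts, while its bright one differed by 0.03. Dimmer probe sets of Atp5a1 and Ndufab1 stood out on knock-in array 2 alone. That of Atp5a1 read 8.50 and 9.52 in knock-in hearts, against 8.64 and 8.60 in wild-type hearts. That of Ndufab1 read 8.70 and 9.75 in knock-in hearts, against 9.04 and 8.81 in wild-type hearts. None of the 185 probe sets passed over all probe sets with 1 symbol by limma, and 5 had an unadjusted p under 0.05, 3 of them higher and 2 lower in knock-in hearts.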
